A study of Mus musculus with 21 samples.

Results

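Transcripts of 10 neuronal cytoskeleton genes were followed in whole brains of SAMP8 mice, a senescence-accelerated inbred strain, after chronic dosing with HsTX1[R14A] or vehicle. The genes were chosen by name and all 10 were present among the 16318 genes of the deposited table. They comprise the neurofilament subunits Nefl, Nefm, Nefh and Ina, the microtubule-associated proteins Map1a, Map1b and Map2, the neuronal tubulin Tubb3, the tubulin-binding protein Stmn2 and the collapsin response mediator Dpysl2. HsTX1[R14A] is a peptide that blocks Kv1.3, a voltage-gated potassium channel, and the sample titles spell it HxTX1. Over 8 weeks, 9 mice (3 female and 6 male) received it subcutaneously on alternate days at 1 mg/kg, while 12 mice (6 of each sex) received the vehicle, phosphate-buffered saline (PBS), and both treatments were randomized within cages. Dosing began at 4 months of age and ended at 6 months. Every mouse was SAMP8, no senescence-resistant strain was sequenced in these libraries, and each library came from the perfused brain of 1 mouse. Estimated counts summed to between 14917174 and 47613792 per library, and the 10 genes together took 0.315% to 0.690% of them. Among the 10 genes, the lowest estimate in any library was 719 counts, for Nefh, and the highest was 84312 counts, for Map2.

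Neurofilaments are the intermediate filaments of neurons. The light (Nefl), medium (Nefm) and heavy (Nefh) chains and alpha-internexin (Ina) assemble together, fill large axons and set their caliber, and the light chain is released when axons are damaged. Microtubules give axons and dendrites their tracks for transport: Map2 binds them in dendrites, Map1a in mature neurons, and Map1b is best known from growing axons. Tubb3 is the beta-tubulin of neurons, Stmn2 sequesters tubulin in growth cones and regenerating axons, and Dpysl2 (CRMP2) carries tubulin dimers to the growing end. In a bulk sample of the whole brain, fewer neurons and less RNA per neuron cannot be told apart. General neuronal markers, 10 genes listed separately, were all present and summed to 5313 to 9517 CPM (counts relative to the TMM-scaled library total) across the 21 mice.

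The genes lie on 8 chromosomes of GRCm38, as annotated by GENCODE. Nefl (chr14:68083863-68089095, plus strand) and Nefm (chr14:68082590-68124846, minus strand) are neighbours whose annotated exons share 1108 bases on opposite strands, through a long Nefm transcript. Ina (chr19:47014698-47025327, plus strand) shares 456 exon bases with Nt5c2, and Map1a (chr2:121289600-121310832, plus strand) shares 272 with Ppip5k1, in both cases on the opposite strand. Nefh (chr11:4938754-4948064, minus strand), Stmn2 (chr3:8509360-8561606, plus strand) and Dpysl2 (chr14:66802864-66868688, minus strand) overlap no other annotated gene. Map1b (chr13:99421446-99516540, minus strand), Map2 (chr1:66175273-66442583, plus strand) and Tubb3 (chr8:123411424-123422015, plus strand) overlap others, and among these 3 genes shared exon bases were found for Map2 alone (124 bases, antisense Gm10558). The study's methods name a directional library kit and the labels a different one, so how reads in shared exon bases were assigned to a strand was not tested.

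RefSeq promoter entries (GRCm38.p6) were found for Ina, Map1a, Map1b, Map2 and Tubb3, and Nefl, Nefm, Nefh, Stmn2 and Dpysl2 were not among the entries. The 100 bases before the RefSeq start are shown for the 3 of these genes that were higher after HsTX1[R14A], written 5′ to 3′ on the strand of the gene. Capitals mark a GC box (letters GGGCGG, or on the other strand their complement CCGCCC), the CCAAT box or a TATA box (letters TATAAA).
Ina, chr19:47014581-47014680, plus strand: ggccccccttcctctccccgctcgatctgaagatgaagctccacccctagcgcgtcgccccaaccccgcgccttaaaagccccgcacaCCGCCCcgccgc
Map1a, chr2:121289502-121289601, plus strand: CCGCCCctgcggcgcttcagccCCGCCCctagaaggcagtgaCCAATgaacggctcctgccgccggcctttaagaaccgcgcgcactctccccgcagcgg
Map1b, chr13:99516603-99516702, minus strand: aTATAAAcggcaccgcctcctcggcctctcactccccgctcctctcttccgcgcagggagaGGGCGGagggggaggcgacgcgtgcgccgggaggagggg

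Over the full window of each entry, from 250 bases before to 50 after the start, GC boxes on either strand numbered 2 for Ina, 4 for Map1a, 2 for Map1b, 5 for Map2 and 2 for Tubb3. A GC box was present in 35.7% of all 32851 promoter entries. The TATA box occurred in Map1b only among these 5 genes, and in 13.6% of all entries. The CCAAT box occurred in Map1a and Tubb3, and in 37.4% of all entries. A cyclic AMP response element (TGACGTCA, 1.79% of entries) and an E-box (CACGTG, 7.15%) occurred in none of these 5 windows. These matches describe the letters of the windows, and the data hold no measure of binding at them.

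Levels in PBS-treated brains differed widely between the genes. Per kilobase of the longest annotated transcript, Map2 was the most abundant at 230 ± 22.7 CPM per kb (SD, n = 12), above Tubb3 in 12 of 12 mice. Tubb3 (128 ± 14.1), Nefl (124 ± 14.2) and Stmn2 (111 ± 18.4 CPM per kb) followed. These neighbours were not separated beyond their spread, since Tubb3 exceeded Nefl in 8 of 12 mice and Nefl exceeded Stmn2 in 9. Stmn2 exceeded the next gene, Ina (60.1 ± 14.6), in 12 of 12 mice. Ina, Map1a (52.7 ± 28.6), Map1b (49.2 ± 16.5), Dpysl2 (46.9 ± 4.09) and Nefm (43.8 ± 15.6 CPM per kb) changed order from mouse to mouse, and each exceeded the next in 6 to 9 of 12 mice. Nefh was the least abundant at 20.3 ± 4.67 CPM per kb, below Nefm in 12 of 12 mice. This scale divides all counts of a gene by 1 length, while Map2 has 24 annotated transcripts and Stmn2 has 4. The order rests on that choice, and which transcripts were expressed was not tested.

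The spread between PBS mice also differed between the genes. Map1a had a coefficient of variation of 54.2% across the 12 PBS brains, and 99.3% of the 3967 genes with a mean of at least 50 CPM varied less. Nefm (35.6%), Map1b (33.4%), Ina (24.2%) and Nefh (23.1%) were likewise above the median gene, at 15.9%. Stmn2 was close to it at 16.5%. Nefl (11.4%), Tubb3 (11.02%), Map2 (9.88%) and Dpysl2 (8.71%) varied least of the 10.

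After HsTX1[R14A], 5 of the 10 genes were higher than after PBS and none was lower, by edgeR's quasi-likelihood test with sex in the model and Benjamini-Hochberg adjustment over all 16303 genes tested. Over all of these genes, 31.6% passed the same threshold, 15.5% higher and 16.1% lower. The 5 that rose were Map1a, Map1b, Nefm, Ina and Dpysl2. The median log2 fold change of the 10 genes was 0.30 against -0.013 for all genes, and 9 of the 10 were above 0. Since the genes were named with results of these libraries known, this count is a description of them.

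**Figure D1:**
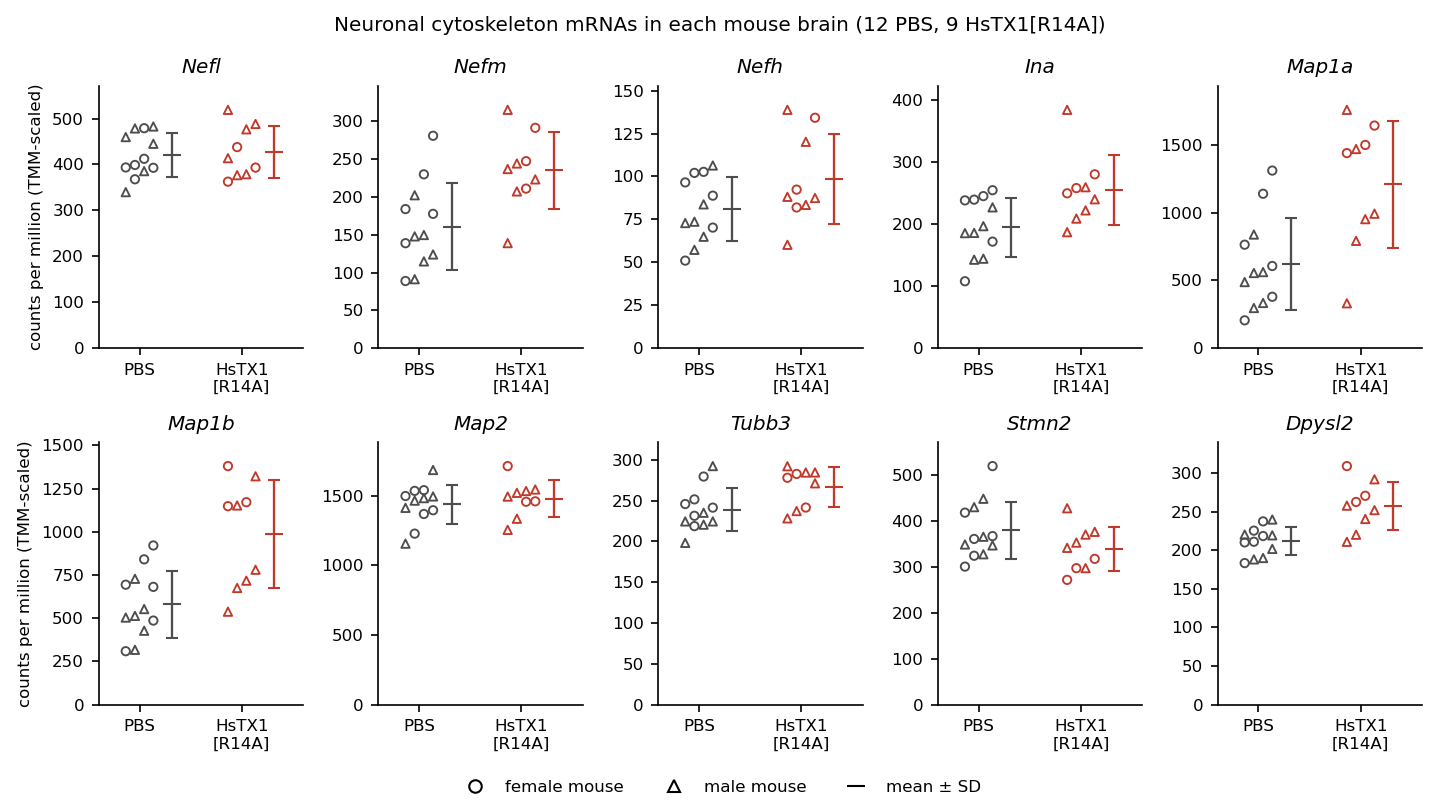
CPM (vertical axes, from 0, TMM-scaled) of the 10 genes in each PBS (grey, 12 mice) and HsTX1[R14A] (red, 9 mice) brain, with circles for females, triangles for males and bars for the mean ± SD. Map1a, Map1b, Nefm, Ina and Dpysl2 lie higher in most HsTX1[R14A] brains with overlapping ranges, while Nefl and Map2 cover nearly the same range in both groups.

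Among the neurofilament subunits, Nefm changed most. Its level ran from 89.0 CPM through a median of 149 to 281 CPM in the 12 PBS mice. In the HsTX1[R14A] mice it was 211, 247.5 and 292 CPM in the 3 females, and ran from 139 through a median of 230 to 315 CPM in the 6 males. The ranges overlapped, with 8 of 9 treated mice above the PBS median and male 93 the lowest of them. Nefm was higher by a log2 fold change of 0.61 (SE 0.178, adjusted p = 0.0217, edgeR), a fold of 1.53.

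Ina, the internexin that co-assembles with the neurofilament chains, ran from 108 through 191 to 254.5 CPM after PBS. It measured 249.5, 258 and 280.1 CPM in the treated females and ran from 187 through 231 to 384 CPM in the treated males. The highest value belonged to male 81, and 8 of 9 treated mice were above the PBS median. The log2 fold change was 0.41 (SE 0.145, adjusted p = 0.0369, edgeR), and it no longer passed when any 1 of 10 mice was left out (adjusted p up to 0.0773, without male 81). The mice whose removal ended this call were PBS mice 73, 90, 91 and 101 and HsTX1[R14A] mice 71, 72, 74, 81, 88 and 98.

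Nefl, which codes for the light chain on which the others assemble, had similar ranges in the 2 groups. It ran from 339.8 through 406 to 483 CPM after PBS. The treated females had 363, 393 and 438 CPM, and the treated males ran from 377 through 445 to 519 CPM. Treated mice lay on both sides of the PBS median, 5 above and 4 below, and the log2 fold change was 0.01 (SE 0.0798, adjusted p = 0.954, edgeR). Its sign turned in 4 other fits and with 7 mice left out in turn, always close to 0.

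Nefh, which codes for the heavy chain, ran from 51.0 through 78.7 to 106 CPM after PBS, and was 82.0, 92.4 and 134 CPM in the treated females. In the treated males it ran from 60.2 through 87.8 to 139 CPM. Most treated values stayed within the PBS range, with 3 of 9 above it. The log2 fold change of 0.31 (SE 0.153) did not pass the test (adjusted p = 0.118, edgeR).

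Both MAP1 genes, whose products are long proteins along microtubules, had the largest log2 fold changes of the 10 genes. Map1a ran from 206 through 558.5 to 1311 CPM after PBS, and the treated females had 1440, 1500 and 1643 CPM. The treated males ran from 332 through 973 to 1759 CPM. All 3 treated females and males 81 and 88 exceeded the highest PBS mouse, while male 93 lay below the PBS median. Map1a was higher by a log2 fold change of 1.04 (SE 0.291, adjusted p = 0.0195, edgeR), a fold of 2.06.

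Map1b ran from 308.5 through 533 to 920.5 CPM after PBS. The treated females had 1148, 1171 and 1380 CPM, and the treated males ran from 537 through 748.5 to 1321 CPM. All 9 treated mice were above the PBS median, and the same 5 mice as for Map1a were above every PBS mouse. Those 5 libraries also had a length slope, described below, above that of every PBS library. The log2 fold change was 0.83 (SE 0.186, adjusted p = 0.0151, edgeR), a fold of 1.77.

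Map2, the dendritic microtubule-associated protein, ran from 1155 through 1473 to 1684 CPM after PBS. It was 1456, 1459 and 1712 CPM in the treated females and ran from 1254 through 1507 to 1544 CPM in the treated males. Only 1 treated mouse lay above the PBS range and none below it. The log2 fold change was 0.04 (SE 0.0716, adjusted p = 0.646, edgeR).

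Dpysl2 showed a smaller difference with little spread. It ran from 183 through 215 to 239.9 CPM after PBS, was 263, 271 and 309 CPM in the treated females, and ran from 211 through 246 to 292 CPM in the treated males. Of the 9 treated mice, 7 exceeded the highest PBS mouse, which no other gene of the 10 matched. The log2 fold change was 0.29 (SE 0.0696, adjusted p = 0.016, edgeR), a fold of 1.22.

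Tubb3 ran from 198 through 233 to 292.2 CPM after PBS, was 241, 278 and 283 CPM in the treated females, and ran from 228 through 278 to 292.0 CPM in the treated males. Although 8 of 9 treated mice were above the PBS median, the log2 fold change of 0.17 (SE 0.0715) did not pass (adjusted p = 0.0725, edgeR). It passed with DESeq2 (adjusted p = 0.0389), with sample quality weights (adjusted p = 0.0375), and in edgeR without PBS mouse 102 (adjusted p = 0.0207), PBS mouse 104 (0.0434) or HsTX1[R14A] mouse 93 (0.0401).

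Stmn2 was the 1 gene of the 10 with a negative log2 fold change. It ran from 301 through 363 to 519.7 CPM after PBS. The treated females had 272, 297 and 317.5 CPM, all under the median of the PBS females (364 CPM), and the treated males ran from 297 through 362 to 428 CPM. The highest Stmn2 of each group was in the mouse with the lowest Map1a of that group (PBS mouse 103 and HsTX1[R14A] mouse 93). The log2 fold change of -0.19 (SE 0.099) did not pass the test (adjusted p = 0.143, edgeR).

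Differences within the family were then tested as ratios of counts of 2 genes in the same library. A ratio does not depend on how libraries are scaled, but it does carry any difference between the 2 genes in their dependence on the length slope described below. Treatment labels were permuted within sex in every possible way, and p-values were adjusted over the 6 ratios. Counts of Nefm per count of Nefl had a median of 0.343 after PBS and 0.565 after HsTX1[R14A]. The treated mice were higher by 0.64 in this log2 ratio (two-sided exact permutation test, p = 0.00214, adjusted p = 0.0109), and was above the PBS median in 8 of 9 treated mice. The log2 ratio of Ina to Nefl differed by 0.42 (exact permutation test, p = 0.0178, adjusted p = 0.0266), in 6 of 9 treated mice above the PBS median. It did not pass without PBS mouse 90 (exact permutation test, adjusted p = 0.05002) or without HsTX1[R14A] mouse 81 (0.0516). The log2 ratio of Nefh to Nefl differed by 0.29 (exact permutation test, p = 0.0883, adjusted p = 0.106), which did not pass with all mice and passed without HsTX1[R14A] mouse 93 (adjusted p = 0.0391).

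The ratio of Map2 to Map1a, both transcripts of microtubule-associated proteins, also differed between the treatments. Map2 counts per Map1a count had a median of 2.66 after PBS and 1.04 after HsTX1[R14A], and the log2 ratio was lower in 8 of 9 treated mice than the PBS median (difference -1.04, two-sided exact permutation test, p = 0.00363, adjusted p = 0.0109). Stmn2 relative to Tubb3 was lower in 8 of 9 treated mice, with median count ratios of 1.57 and 1.26 (log2 difference -0.35, exact permutation test, p = 0.0103, adjusted p = 0.0205). Map1b relative to Map1a differed by -0.25 (exact permutation test, p = 0.154, adjusted p = 0.154). Without HsTX1[R14A] mouse 93 that difference was -0.35 and passed (exact permutation test, adjusted p = 0.0235). Within the 15 libraries of the more common name form described below, none of the 6 ratios passed (exact permutation test, lowest adjusted p = 0.0561). The log2 differences there were 0.65 for Nefm/Nefl and -1.11 for Map2/Map1a. With all mice, and labels permuted within sex and name form, 4 of the 6 passed. These were Nefm/Nefl and Map2/Map1a (exact permutation test, adjusted p = 0.0290 each), Ina/Nefl (0.0438) and Stmn2/Tubb3 (0.0477).

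**Figure D2:**
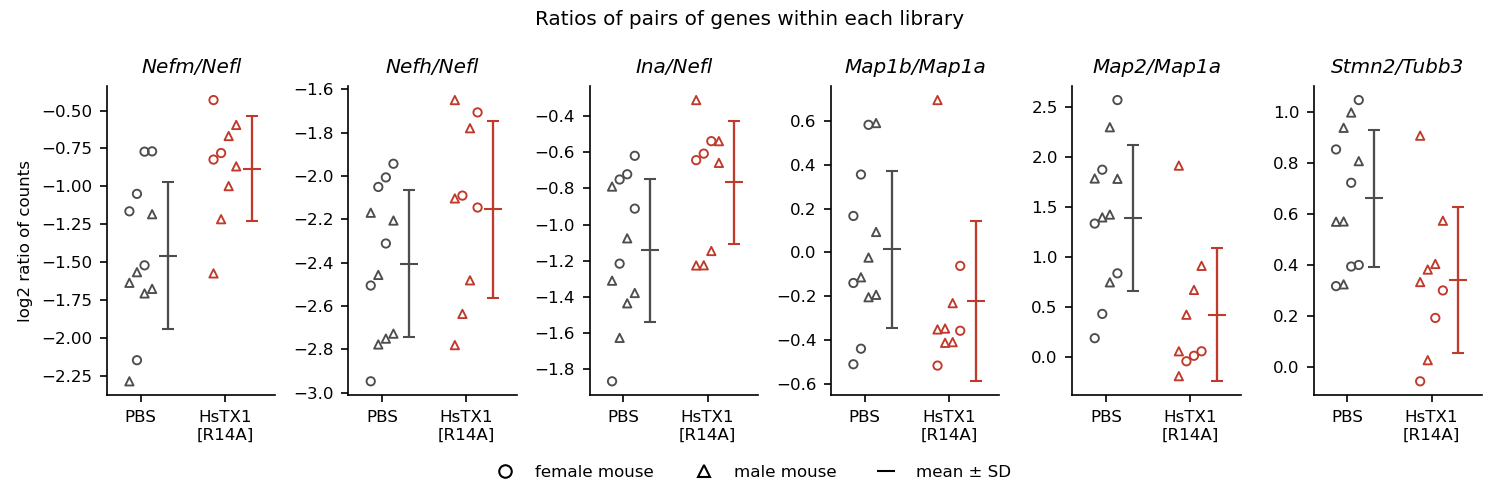
Log2 ratios of estimated counts of 2 genes within each library (vertical axes) for 12 PBS (grey) and 9 HsTX1[R14A] (red) mice, circles for females, triangles for males, bars for the mean ± SD. Nefm/Nefl is higher in 8 of 9 treated mice and Map2/Map1a lower in 8 of 9 than the PBS median, and the groups overlap in every panel.

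No difference between the sexes was called for the 10 genes. None passed the test of male against female mice in the same edgeR model, where 0.0552% of all genes passed, and 1 of the 10 (Map1b) against 10.8% of all genes had an unadjusted p under 0.05. Map1b was lower in males by a log2 fold change of -0.43 (SE 0.186, adjusted p = 0.446, edgeR). With sample quality weights the whole comparison moved, to 2582 genes, and Map1b (log2 fold change -0.54, adjusted p = 0.0302) and Map1a (-0.63, adjusted p = 0.0467) were then lower in males (limma).

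The treatment difference was not found to depend on sex. No gene of the 10 and none of all genes (0.0% in edgeR, with 270 genes or 1.66% at an unadjusted p under 0.05) passed the test of the treatment by sex interaction, nor did any with limma/voom or DESeq2. For Map1a, the effect in males minus that in females was -0.02 on the log2 scale (SE 0.612), so this design bounds it loosely. Stmn2 had the smallest unadjusted interaction p of the 10, with an effect in males 0.30 above that in females (SE 0.194, adjusted p = 1.0, edgeR).

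In each sex alone, no gene passed in edgeR (0.0% in females and in males), although 20.4% of genes in females and 27.6% in males had an unadjusted p under 0.05. Of the 10 genes, 3 had such a p in females (Map1a, Map1b, Dpysl2) and 5 in males (these and Nefm and Ina). Map1a was higher by 1.06 (SE 0.464) in females and by 1.04 (SE 0.341) in males on the log2 scale, and Map1b by 0.91 (SE 0.287) and 0.78 (SE 0.231). Nefm was higher by 0.45 (SE 0.296) in females and 0.72 (SE 0.199) in males. Stmn2 had a log2 fold change of -0.37 (SE 0.176) in females and -0.06 (SE 0.11) in males. DESeq2 called 144 genes in females, among them Dpysl2, and 692 in males, among them Nefm, Map1a and Map1b. Without HsTX1[R14A] mouse 93, edgeR called 1879 genes in males, including the same 3 genes (log2 fold changes 0.83, 1.23 and 0.88).

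The levels of several of these genes moved with a property of the libraries. For each library, the log2 CPM of all genes other than these 10, centred on the gene's mean, was regressed on log2 transcript length, and the slope says how far long transcripts were over-represented. Its median was -0.0229 in PBS libraries (range -0.384 to 0.147) and 0.15 in HsTX1[R14A] libraries (range -0.141 to 0.234), and the sex-averaged difference was 0.194 (two-sided exact permutation test within sex, p = 0.00504). HsTX1[R14A] mice 71, 72, 81, 88 and 98, which exceeded every PBS mouse in Map1a and Map1b, had slopes of 0.1497 to 0.2338. The highest PBS slope was 0.1469, and the lowest treated slope was that of mouse 93. A GC slope, taken the same way on GC content, was also lowest in PBS mice 103 and 90 (-3.14 and -2.69). The signs of the length and GC slopes differed in PBS mice 85, 102 and 105 and HsTX1[R14A] mouse 92. The parts of length and GC content were not separated. In the 12 PBS mice alone, where treatment plays no part, 7 of the 10 genes were correlated with the length slope (permutation test, 100000 resamples, two-sided, adjusted over the 10). The same share over all genes was not computed, so this count is not read as particular to these 10.

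Map1b (Pearson r = 0.929, rho = 0.902) and Map1a (r = 0.925, rho = 0.93) followed the slope most closely across the PBS mice, both with a permutation p of 1e-05, the smallest that the resamples can give (adjusted p = 5e-05). For Map1b the permutation p of rho was 0.00019 and for Map1a 6e-05. Their longest transcripts, at 11808 and 11825 bases, are the longest of the 10. Ina (r = 0.871, permutation p = 0.0003, adjusted 0.00075, rho = 0.783, p = 0.00382), Nefm (r = 0.839, permutation p = 0.00049, adjusted 0.00098, rho = 0.832, p = 0.00134) and Nefh (r = 0.821, permutation p = 0.001, adjusted 0.00167, rho = 0.776, p = 0.00446) also rose with it. Their longest transcripts, of 3240 to 3994 bases, are near the median of all genes tested (3283.5 bases). The GC content of these transcripts is 57.8% for Nefm, 58.4% for Nefh and 55.5% for Ina. That of Tubb3, which did not follow the slope, is 57.9%.

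Stmn2 ran the other way (r = -0.879, permutation p = 0.0002, adjusted 0.000667, rho = -0.65, p = 0.0264), with a longest transcript of 3413 bases. Dpysl2 was correlated less closely (r = 0.689, permutation p = 0.0131, adjusted 0.0187, rho = 0.629, p = 0.0315). Map2 (r = 0.521, permutation p = 0.0794, adjusted 0.0993, rho = 0.601, p = 0.0438), Tubb3 (r = 0.144, permutation p = 0.663, rho = 0.182, p = 0.576) and Nefl (r = -0.077, permutation p = 0.811, rho = -0.091, p = 0.782) did not pass. Leaving out the libraries with the most extreme slopes, PBS mice 103 and 90, the correlations were 0.831 for Map1b, 0.887 for Map1a, 0.704 for Ina, 0.657 for Nefm, 0.711 for Nefh and -0.704 for Stmn2. That of Dpysl2 was then 0.296, so it rests on those mice. Across the 10 genes, the log2 fold change after HsTX1[R14A] had r = 0.68 and rho = 0.503 with log2 transcript length, a description over genes that share their libraries.

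**Figure D3:**
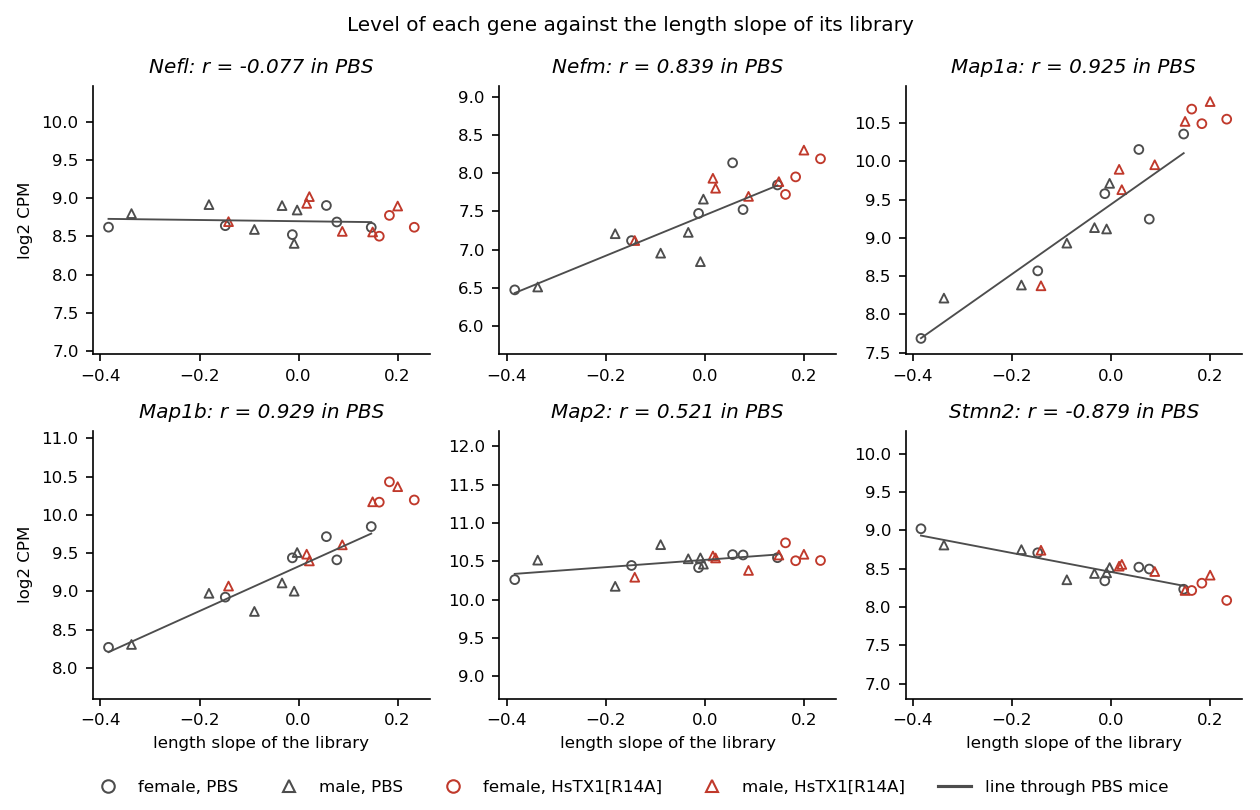
Log2 CPM of 6 of the genes (vertical axes, each spanning the same log2 range) against the slope of its library (horizontal axis, log2 CPM per log2 base), PBS mice in grey and HsTX1[R14A] mice in red, circles for females, triangles for males, with a least-squares line through the PBS mice. Map1a, Map1b and Nefm climb with the slope in PBS mice (r = 0.925, 0.929 and 0.839), Stmn2 declines (r = -0.879) and Nefl is flat (r = -0.077).

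With each library's length slope added to the edgeR model, no gene passed (0.0%), and 0 of the 10 genes did. In that fit, which called 1868 genes at an unadjusted p under 0.05, the log2 fold change was 0.25 for Map1b (SE 0.1, adjusted p = 0.359), 0.17 for Dpysl2 (SE 0.0674, adjusted p = 0.359), 0.12 for Map1a (SE 0.156, adjusted p = 0.784), 0.13 for Nefm (SE 0.133, adjusted p = 0.723) and 0.01 for Ina (SE 0.103, adjusted p = 0.98). The pairs with the largest ratio differences were pairs of genes with unlike dependence on the slope in PBS mice, 4.55 log2 CPM per unit of slope for Map1a against 0.477 for Map2, and 2.65 for Nefm against -0.079 for Nefl. With the slope added, Map2 had a log2 fold change of -0.06 beside 0.12 for Map1a, and Nefl 0.01 beside 0.13 for Nefm, so the genes of each pair lay much closer than without it. The ratios themselves were not tested with the slope added. Where each library was instead freed of a smooth trend over transcript length and GC content, 15.3% of genes passed. Map1b (0.44, adjusted p = 0.0118), Map1a (0.42, adjusted p = 0.0309) and Dpysl2 (0.19, adjusted p = 0.0263) were still higher in that fit. Nefm (0.34, adjusted p = 0.0561) and Ina (0.26, adjusted p = 0.0866) did not pass. The slope and the treatment are partly confounded here, and what part of each difference goes with the peptide and what part with the slope cannot be told apart.

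**Figure D4:**
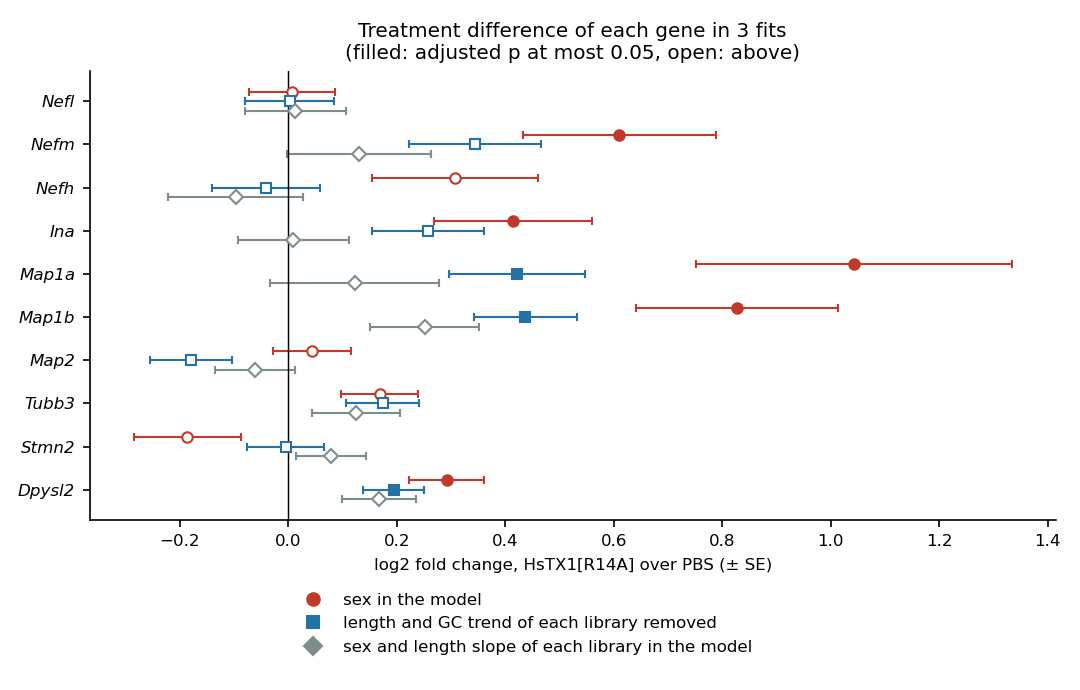
Log2 fold change between the treatments (HsTX1[R14A] relative to PBS, horizontal axis, bars ± SE) for each of the 10 genes with sex in the model (red circles), with the length and GC trend of each library removed (blue squares) and with each library's slope added (grey diamonds), filled where the adjusted p is at most 0.05. Map1a goes from 1.04 to 0.42 and 0.12, Map1b from 0.83 to 0.44 and 0.25, and Nefl stays near 0 in all 3.

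The libraries also carried names of 2 forms in the material supplied with the study, SAMP8 (10 PBS and 5 HsTX1[R14A] mice) and SAMP (2 and 4), and the sources used here do not say what the forms mean. In mice of the SAMP8 form, mean Map1a was 550.5 CPM after PBS and 1176 CPM after HsTX1[R14A], and mean Nefm 145 and 208.5 CPM. In mice of the SAMP form the means were 989 and 1251 CPM for Map1a, and 242 and 269 CPM for Nefm. Within the 15 mice of the SAMP8 form no gene passed in edgeR (5797 had an unadjusted p under 0.05). There the log2 fold changes were 0.92 for Map1b (adjusted p = 0.0563), 0.37 for Dpysl2 (0.0563), 1.14 for Map1a (0.0686), 0.57 for Nefm (0.0708) and 0.37 for Ina (0.133). Within the 6 mice of the SAMP form none passed (532 unadjusted), with 0.38 for Map1b and 0.45 for Map1a (adjusted p = 0.855 each, edgeR). With the name form as a covariate in all mice, 12.3% of genes passed, among them Nefm, Map1a, Map1b and Dpysl2, and Ina did not (adjusted p = 0.0836, edgeR). The difference in length slope was 0.195 within the SAMP8 form (exact permutation test, p = 0.0425) and 0.12 within the SAMP form (exact permutation test, p = 0.25, over 8 labelings, too few to reach the threshold).

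Other cytoskeleton genes were taken from 8 lists of related functions, 125 genes in all. Of these, 45 were higher and 12 lower after HsTX1[R14A] by edgeR, with a median log2 fold change of 0.19, where 15.5% of all genes were higher and 16.1% lower. The counts of the lists below are read against these shares, and several of them, among them the growth cone genes higher and the kinases and phosphatases lower, are close to or under them. The spectrins, ankyrins and adducins, which build the membrane skeleton of the axon, had 8 of 11 genes higher and none lower. Ank2, which anchors the lattice along the axon, went from 292 ± 85.4 to 435 ± 110 CPM (SD, n = 12 and 9, log2 fold change 0.62, adjusted p = 0.0188, edgeR), and Sptan1, the alpha-spectrin of neurons, from 398 ± 176 to 678 ± 191 CPM (0.82, adjusted p = 0.0217, edgeR).

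Of the other microtubule-associated proteins, 10 of 22 were higher and none lower. Mapre2, a protein of growing microtubule ends, was above the PBS median in 9 of 9 treated mice (log2 fold change 0.45, adjusted p = 0.0151, edgeR), and Camsap1, which caps minus ends, in 8 of 9 (0.61, adjusted p = 0.018). Other stathmins and CRMPs had 4 of 7 higher and 1 lower, with Crmp1 at 0.42 (adjusted p = 0.0222) and Dpysl5 at 0.82 (adjusted p = 0.0258), both relatives of Dpysl2. Other tubulins had 1 of 13 higher, Tubb2a (0.23, adjusted p = 0.0364), while Tubb4a (0.53) did not pass (adjusted p = 0.0572). Other intermediate filament genes had 5 of 11 higher and 1 lower, among them Dst, a linker of filaments to microtubules (0.82, adjusted p = 0.0272), and Synm (0.39, adjusted p = 0.0299).

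Of the kinesin and dynein genes, the motors of axonal transport, 10 of 25 were higher and 4 lower, the latter a share close to the 16.1% of all genes. Kif5b, a heavy chain of the kinesin that carries axonal cargo, fell from 679 ± 172 to 449 ± 76.0 CPM (SD, n = 12 and 9) and was below the PBS median in 9 of 9 treated mice (log2 fold change -0.64, adjusted p = 0.0151, edgeR). Dynlt3, a dynein light chain, was lower by a similar size (-0.54, adjusted p = 0.0151). Growth cone and actin genes had 2 of 16 higher and 4 lower, with the thymosins Tmsb10 (-0.60, adjusted p = 0.0202) and Tmsb4x (-0.55, adjusted p = 0.0275) among those lower. Kinases and phosphatases that act on tau, neurofilaments and MAPs had 5 of 20 higher and 2 lower. Gsk3b (0.33, adjusted p = 0.0192) and the Cdk5 activator Cdk5r1 (0.23, adjusted p = 0.0221) were above the PBS median in 9 of 9 treated mice. With the length and GC trend removed, 20 of the 125 genes were higher and 8 lower, where 15.3% of all genes passed in either direction. Those higher were then 4 of 11 spectrins, ankyrins and adducins, 5 of 22 other microtubule-associated proteins and 6 of 25 kinesin and dynein genes. The others were 2 of 7 stathmins and CRMPs, 1 of 13 tubulins, 1 of 11 intermediate filament genes, 1 of 16 growth cone and actin genes and 0 of 20 kinases and phosphatases. Mapre2 (0.42, adjusted p = 0.00943) and Kif5b (-0.63, adjusted p = 0.0101) were nearly unmoved in that fit, and Dst, Camsap1, Tubb2a, Crmp1, Dpysl5, Sptan1 and Dynlt3 also passed. Of the genes named as called above, Synm, Gsk3b and Cdk5r1 did not pass there (adjusted p = 0.971, 0.266 and 0.948), nor did Ank2 (0.13, adjusted p = 0.0845), Tmsb10 (-0.25, adjusted p = 0.0815) and Tmsb4x (-0.13, adjusted p = 0.335). With the length slope as a covariate, none of the 125 passed, and within the 15 SAMP8-form mice none did.

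**Figure D5:**
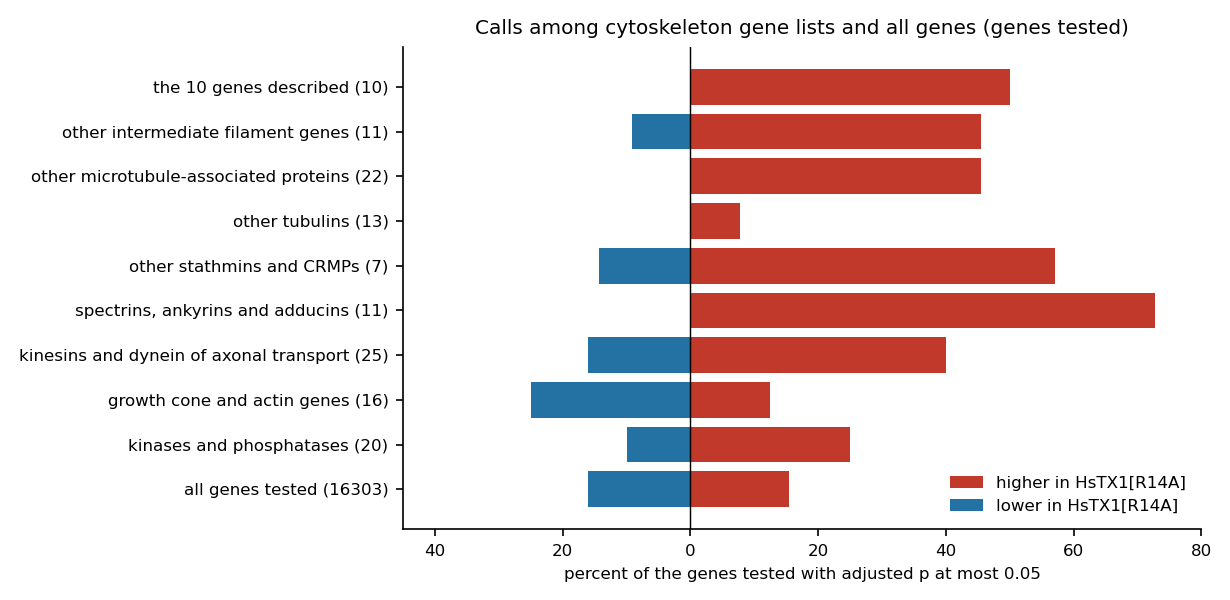
Share of the genes tested that were higher (red, to the right of 0) or lower (blue, to the left) after HsTX1[R14A] at an adjusted p of at most 0.05 in edgeR, in percent, for the 10 genes described, 8 lists of other cytoskeleton genes and all 16303 genes, with the number tested in parentheses. Spectrins, ankyrins and adducins have 8 of 11 genes higher and other tubulins 1 of 13, against 15.5% of all genes.

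Markers of other cells were also called in the same libraries, where 15.5% of all genes were higher and 16.1% lower. Of 10 oligodendrocyte markers 6 were lower after HsTX1[R14A] and none higher, and their summed level ran from 4624 to 7041 CPM after PBS and from 3512 to 5151 CPM after HsTX1[R14A]. Microglial markers (5 of 10 lower, 419.7 to 624 and 350.4 to 532 CPM) and astrocyte markers (4 of 10 lower, 3413 to 5087 and 3413 to 5128 CPM) had none higher. General neuronal markers had 3 of 10 higher and none lower (5313 to 8004 and 6201 to 9517 CPM), and none of these 40 markers was at 0 in any mouse. Mitochondrially encoded mRNAs, at 70620 to 185900 CPM after PBS and 56300 to 108700 CPM after HsTX1[R14A], were lower for 12 of 13, with a median log2 fold change of -0.689. With the length and GC trend removed, that count was 5 of 13 (median -0.108), oligodendrocyte markers had 6, microglial 4 and astrocyte 2 of 10 lower, and general neuronal markers 2 of 10 higher. In that fit 15.3% of all genes passed in either direction. The part of these markers in the differences of the 10 genes was not tested.

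Across the 21 mice, after removal of the fitted treatment and sex terms, the genes described fell into unlike patterns. Map1b varied with Map1a (r = 0.928), Ina (0.872), Nefm (0.863), Nefh (0.858) and Dpysl2 (0.724), and opposite to Stmn2 (-0.756). Nefl had r between -0.09 and 0.414 with the other 9, the highest with Nefm. The genes outside the 10 most like Map1b were Dscam (r = 0.974), Celsr2 (0.971) and Tenm4 (0.971), and 5.3% of 13292 genes exceeded 0.9 with it. Those most like Stmn2 were Zcchc17 (0.957), Psmd4 (0.955) and Fam204a (0.937), with 0.308% of genes above 0.9. Those most like Nefl were Sept6 (0.836), Kif1bp (0.803) and Rnf115 (0.791), with no gene above 0.9. The points share their libraries and so their slopes, and no p is given for them.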

How the data were processed

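Per the labels and the study's methods, the authors aligned reads to GRCm38 with STAR and quantified genes with Salmon, and they deposited estimated counts for 16318 genes, without normalization. The filter that set this number and the tool versions are not given in the sources used here. The estimates, 90.496% of which were whole to within 0.01, were rounded for the tests. A further 53 per-sample columns (37 of CPM and 16 of counts) and the authors' columns of fold change, p-value, FDR and mean expression were not used here.

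After filterByExpr, which kept 16303 genes, and TMM scaling, quasi-likelihood tests (glmQLFit, then glmQLFTest) were run in edgeR 4.0.16 under R 4.3.3 with treatment and sex in the model, Benjamini-Hochberg adjustment and a threshold of 0.05. The standard error was the log2 fold change divided by the square root of F. CPM values are TMM-scaled, and log2 CPM carried a prior count of 2. Mice were grouped by the labels, with 1 library each. Ratios were tested by exact permutation within sex (77616 labelings). Library slopes used the longest GENCODE transcript of each gene (16214 genes). Alternatives used limma 3.58.1, DESeq2 1.42.0 and sva 3.50.0, and a loess trend of span 0.5. The edgeR script was tested on simulated data with 200 genes changed. At a fold of 2 it recovered 188 of them, with 13 false calls. At a fold of 1.3 it recovered 39, with 0 false calls, so changes of that size were mostly missed in that run. Whether these rates hold for the libraries of the mice was not tested. Depth was 14917174 to 47613792 counts, and the spread between mice, not counting error, sets the precision of the genes named.

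The 10 genes and all lists were chosen with earlier results of these data known. The rule for other names was the 2 genes of smallest treatment p in each cytoskeleton list, and, for Nefl, Map1b and Stmn2, the 3 genes most like each. Of 13 brainstem markers, 3 were in the table, with a median log2 fold change of 0.228. Lists of cerebellum, cortex and hippocampus, striatum, hypothalamus and immature neuron markers had 0, 1, 0, 0 and 0 genes called higher and 0 lower. Their median log2 fold changes were 0.472, 0.266, 0.007, -0.062 and -0.045. The summed cerebellum level ran from 307 through a median of 360 to 552 CPM after PBS, and from 256 through 333 to 1065 CPM after HsTX1[R14A]. The part of brain region in the differences of the 10 genes was not tested. Oligodendrocyte precursor and endothelial lists had 2 higher each, ependyma 2 lower, and choroid plexus and red blood cells 0. The symbol Sept6 was taken from the annotation by gene ID, since the deposited table holds it as a date.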

Additional observations from a re-analysis of the deposited data

Results flagged for a closer look

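In groups of 6 or 9 mice, each gene's level and each ratio was examined for a mouse far from its group, 64 group and gene or ratio combinations in all, of which chance flags about 1 in 20. There were 5 flags. Ina in HsTX1[R14A] male 81 was 383.9 CPM, against 259.3 CPM for the next of the 6 treated males and 280.1 CPM for the next of all 9 treated mice. The log2 ratio of Map1b to Map1a in HsTX1[R14A] male 93 was 0.695, where the next was -0.232 among the treated males and -0.062 among all treated mice. In PBS male 101 the same ratio was 0.590, against 0.093 for the next of the 6 PBS males. No treatment by sex interaction passed the test for any of the 10 genes.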

How the results depend on the processing

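Of the 10 genes, the number called higher was 5 with limma/voom, RLE scaling, 1 surrogate variable and both other filters. With DESeq2 and with quality weights it was 6, as Tubb3 joined the same 5. It was 4 without the sex term or with the name form as covariate, where Ina was lost, and 3 with the length and GC trend removed, where Ina and Nefm were lost. With the slope term and within either name form it was 0. With 1 mouse left out it ran from 4 to 6, with 0 called lower, and Map1a, Map1b, Nefm and Dpysl2 passed in all 21 such fits. Over all genes, the calls were 6145 with DESeq2 and 5662 with quality weights. They were 4821 to 5272 with limma/voom, RLE scaling, 1 surrogate variable and both other filters. All genes called went from 5144 to 2984 without sex, 1999 with name form, 2501 with the trend removed, 0 with the slope and 0 in each name form, and from 2289 (without PBS mouse 90) to 6614 (without HsTX1[R14A] mouse 93) with 1 mouse left out. Without HsTX1[R14A] mouse 71, 81, 88 or 98 it was 3005 to 3332. Other cytoskeleton genes called higher were 21, 14, 20, 0, 0 and 0 in the same order of fits and 18 to 52 with 1 mouse left out (45 with all). Those called lower were 6 without sex, 4 with name form, 0 with the slope and in each name form, and 4 to 16 with 1 mouse left out. Both were lowest without PBS mouse 90. Those higher were also 24 to 28 without HsTX1[R14A] mouse 81, 88 or 98, and those lower 5 to 7 without mouse 71, 72, 74, 81, 88 or 98. Genes called by sex were 26 in DESeq2, 1 with at least 10 counts in every mouse, 2582 with quality weights (2 of the 10) and 18 with the trend removed, and 7 to 11 with 1 mouse left out (0 of the 10). Interaction calls stayed at 0. DESeq2 called 144 genes (1 of the 10) in females and 692 (3 of the 10) in males, and with 1 mouse left out edgeR called 0 in females and 0 to 1879 in males (0 to 3 of the 10), 1 without PBS mouse 102. Ratios passing numbered 4 with labels permuted within sex and name form, 0 in each name form, and 3 to 6 with 1 mouse left out. In the SAMP form the 8 labelings were too few for any ratio to reach the threshold, so that 0 decides nothing. Of the 10 genes, those correlated with the slope numbered 6 to 8, where Dpysl2 was lost without PBS mouse 84, 90 or 103 and Map2 passed without PBS mouse 90 or 91. The cause of these moves was not tested.

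Signs turned only for values that passed in neither fit. For treatment, the log2 fold change of Nefl was -0.000243 with at least 10 counts, -0.0535 with name form, -0.0618 in SAMP8-form and -0.0510 in SAMP-form mice, and -0.0296 to 0.0330 with 1 mouse left out. Nefh was -0.0970 with the slope and -0.0416 with the trend removed, Map2 -0.0609 and -0.179, Stmn2 0.0790 with the slope, and Tubb3 -0.0289 in SAMP-form mice. For sex, Nefh was 0.0688 with the slope, 0.0554 with the trend removed and 0.0107 in SAMP-form mice, Ina 0.0572, Map2 0.0279 and Stmn2 -0.0128 with the slope, Map2 0.0924 with the trend removed, Tubb3 0.0147 in SAMP-form mice, and Map2 -0.0543 to 0.0109 with 1 mouse left out. For the interaction, 1 surrogate variable gave -0.0618 for Nefl, 0.66 for Map1a, 0.31 for Map1b and 0.0283 for Dpysl2. The SAMP8-form mice gave -0.18 for Nefl, -0.15 for Nefh and -0.0796 for Ina, and Map1a was 0.0131 with the slope and 0.0462 with the trend removed. With 1 mouse left out the interaction ran from -0.0751 to 0.29 for Nefh, -0.0155 to 0.28 for Ina, -0.27 to 0.18 for Map1a, -0.30 to 0.00477 for Map1b and -0.000434 to 0.14 for Tubb3. In males Map2 was -0.00350 with DESeq2, -0.00349 with RLE scaling and -0.0543 to 0.0505 with 1 mouse left out, and Nefl -0.0232 to 0.0739. In females Nefl was -0.11 to 0.0282. The correlation of Tubb3 with the slope was -0.165 in the 10 PBS mice of the SAMP8 form, and that of Nefl -0.219 to 0.016 with 1 mouse left out. Each mouse received 1 treatment, and treatments were randomized within cages. The sample titles name no cage, so cage could not enter the tests.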
